A study of Mus musculus with 15 samples.

Results

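Genes of endoplasmic reticulum (ER) protein folding and the unfolded protein response were followed in whole pituitary glands of mice that lack the pituitary enhancer (PE) of Nr5a1. They were chosen by symbol from the gene count table, and all 46 of 46 were found among its 55523 genes, with 1 row each. The ER takes in newly made secretory proteins through the SEC61 channel, cuts off their signal peptides, folds them with chaperones and disulfide isomerases, and sends them on in COPII vesicles. When unfolded protein builds up, the sensors IRE1, PERK and ATF6 signal through XBP1, ATF4 and cleaved ATF6 to raise the folding and degradation machinery. The endocrine cells of the anterior pituitary export large amounts of hormone, such as growth hormone and prolactin, by this route.

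The mice carried a CRISPR/Cas9 deletion of PE, which lies in an intron of Nr5a1, the gene for a nuclear receptor made in the pituitary by gonadotropes. Controls were heterozygous (PE+/-), so every group compared lacked PE on at least one chromosome, and the others lacked it on both (PE-/-). There were 4 libraries of PE+/- males, 4 of PE-/- males, 4 of PE+/- females and 3 of PE-/- females, and age, female cycle stage and whether each library came from a different animal are not given in the sources used here, so p-values measure the spread between libraries, which may be technical. Library totals ran from 12982794 to 30238443 estimated counts, and the 46 genes took from 1.33% to 1.97% of them. Levels are given as CPM, the counts scaled to library size with TMM factors, fold changes as log2 with their standard error (SE), and a gene was called at an adjusted p under 0.05 in the edgeR quasi-likelihood test, adjusted over all genes tested. All 46 genes passed the filter on low counts in each of the 5 comparisons, and none was at the floor of 12 counts throughout a group. In bulk tissue, fewer cells of a type and less RNA per cell cannot be told apart.

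Nr5a1, the targeted gene, had 80.1, 34.8, 45.8 and 40.1 CPM in PE+/- males against 0.303, 0.344, 0 and 0.739 CPM in PE-/- males. It had 33.7, 39.9, 36.0 and 45.4 CPM in PE+/- females against 0.617, 0.896 and 0.656 CPM in PE-/- females, so that the PE-/- and PE+/- libraries were separate in both sexes. Gh, the growth hormone gene, whose product is a main cargo of the ER, averaged 162290 CPM in PE+/- males, 106744 in PE-/- males, 78572 in PE+/- females and 121622 in PE-/- females, and its PE-/- and PE+/- libraries overlapped in females but not in males, where the log2 value was -0.61 (SE 0.24, edgeR adjusted p = 0.727).

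Many promoters of folding genes carry an ER stress response element (ERSE), the letters CCAAT and CCACG with 9 bases between them, which is bound by ATF6 with NF-Y and by XBP1. RefSeq promoters on GRCm38.p6, each of 300 bases with 250 before the start of the gene, were at hand for 36 of the 46 genes. An exact ERSE on either strand was found in 9 of these 36 (Hspa5, Hsp90b1, Dnajc3, Calr, Canx, Pdia6, Creld2, Syvn1 and Derl3) and in 37 of all 27025 genes with such a promoter (0.137%). The 6 stretches that follow show it in 2 chaperones, 2 lectin chaperones, a disulfide isomerase and a ubiquitin ligase of ER-associated degradation, on the strand of the gene from 5′ to 3′. Capitals mark the element, which reads as CGTGG and ATTGG where it lies on the other strand.
Hspa5, chr2:34772020-34772048 (+): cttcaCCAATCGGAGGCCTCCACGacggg
Hsp90b1, chr10:86705633-86705661 (-): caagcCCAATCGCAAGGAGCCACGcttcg
Calr, chr8:84847070-84847098 (-): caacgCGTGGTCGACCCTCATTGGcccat
Canx, chr11:50325795-50325823 (-): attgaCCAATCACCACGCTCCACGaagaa
Pdia6, chr12:17266486-17266514 (+): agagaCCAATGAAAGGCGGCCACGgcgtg
Syvn1, chr19:6046527-6046555 (+): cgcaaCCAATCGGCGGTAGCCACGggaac

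The stretch of Hspa5 lies in an exon of a longer transcript in GENCODE M21, and the other 5 lie outside annotated exons. The shorter ERSE-II, ATTGG and CCACG with 1 base between them, was found in Dnajb11 and Herpud1, against 0.0444% of genes. The XBP1 element TGACGTGG was found in Kdelr3 and Sec24d (0.714% of genes), the ATF4 element TGATGCAA in Herpud1 (1.03% of genes), and the cyclic AMP element TGACGTCA in 0 of the 36 (2.03% of genes). ERSE and ERSE-II share CCACG with each other and with the opposite strand of the XBP1 element. Kdelr3 is shown with its 250 bases before the RefSeq start because, of the genes called below, it was the one with a promoter at hand, and capitals mark the XBP1 element on the opposite strand, at bases 30 to 23 before the start.
Kdelr3, chr15:79516158-79516407 (+): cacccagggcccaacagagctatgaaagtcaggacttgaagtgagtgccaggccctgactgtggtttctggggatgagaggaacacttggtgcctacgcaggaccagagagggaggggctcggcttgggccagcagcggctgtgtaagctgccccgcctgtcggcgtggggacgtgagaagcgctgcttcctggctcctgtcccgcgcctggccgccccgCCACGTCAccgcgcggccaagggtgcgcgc

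In females, 3 of the 46 genes fell in PE-/- pituitaries and none rose: Creb3l1, which encodes the membrane-bound transcription factor OASIS of secretory cells, Sec11c, a catalytic subunit of signal peptidase, and Kdelr3, one of the receptors that return ER residents carrying a KDEL tail from the Golgi. That is 6.52% of the 46 genes, beside 1.05% of all 18085 genes called in either direction and 0.697% called lower. None of the 7 ER chaperones and co-chaperones, 2 lectin chaperones, 4 disulfide isomerases or 3 stress sensors was called in females by edgeR. In males, the same contrast called 0 of the 46 genes, beside 0.132% of all 17392 genes.

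Creb3l1 (mm10, chr2:91982328-92024502, minus strand) had 22.0, 22.4, 46 and 27.1 CPM in PE+/- females, a mean of 29.4 ± 11.3 (SD, n = 4), and 5.80, 2.5 and 5.56 CPM in PE-/- females, a mean of 4.62 ± 1.84 (SD, n = 3). The female groups did not overlap, and all 4 PE+/- females stood above the 11 other libraries. PE+/- males had 3.80, 5.0, 3.6 and 4.2 CPM and PE-/- males 2.98, 4.51, 2.86 and 4.61 CPM, so that the males overlapped with each other and with PE-/- females. The log2 fold change in females was -2.68 (SE 0.41, edgeR adjusted p = 0.0383), a fold of 0.156, and in males -0.15 (SE 0.24, edgeR adjusted p = 0.987).

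Sec11c (mm10, chr18:65800515-65817684, plus strand) had 93.5, 147, 127 and 132 CPM in PE+/- females and 58.8, 53.5 and 59.5 CPM in PE-/- females, which did not overlap. It had 73.8, 78.1, 91.3 and 72.2 CPM in PE+/- males and 60.2, 68.2, 70.1 and 85.3 CPM in PE-/- males, which did. PE+/- females were the highest group and PE-/- females the lowest. The log2 fold change was -1.13 in females (SE 0.17, edgeR adjusted p = 0.0383) and -0.15 in males (SE 0.14, edgeR adjusted p = 0.972).

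Kdelr3 (mm10, chr15:79516411-79527739, plus strand) had 76.8, 128, 130 and 97.7 CPM in PE+/- females and 47.2, 37.3 and 34.3 CPM in PE-/- females. It had 50.2, 56.2, 59.0 and 63.1 CPM in PE+/- males and 32.2, 36.3, 42.5 and 52.0 CPM in PE-/- males. The female groups did not overlap, and the male groups overlapped by 1 PE-/- library above the lowest PE+/- one. The log2 fold change was -1.46 in females (SE 0.23, edgeR adjusted p = 0.0420) and -0.49 in males (SE 0.17, edgeR adjusted p = 0.658). Kdelr3 overlaps Ddx17, which lies on the opposite strand and averaged 104 CPM, and whether the counts used strand is not known, so its value may hold reads of that gene.

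**Figure D1:**
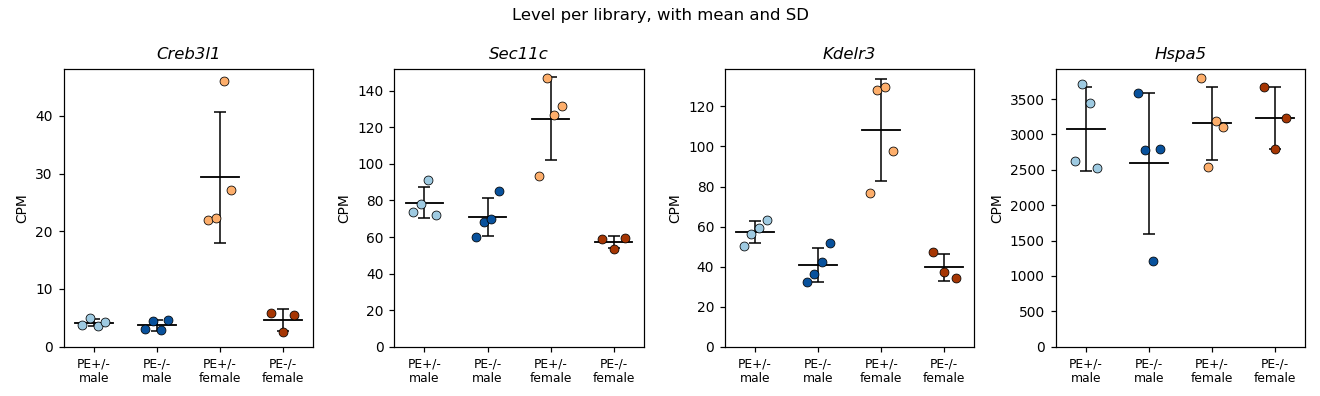
CPM of Creb3l1, Sec11c and Kdelr3, the 3 genes called in females, and of the chaperone gene Hspa5, in each of the 15 libraries by group, with points for libraries, a horizontal line for the group mean and bars for 1 SD. The 4 PE+/- females stand highest in the first 3 panels, from 22.0 to 46 CPM for Creb3l1, while the groups overlap for Hspa5.

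These 3 calls rested on small margins. Each passed the threshold in 1 of the 7 fits that left out 1 library, the one without PE+/- female replicate 1. The number of the 46 genes called was 3 without that library, 1 without PE+/- female replicate 2 (Derl2), and 0 without PE+/- female replicate 3 or 4 or any one of PE-/- female replicates 1, 2 and 3. Over these 7 fits the log2 fold change ran from -2.87 to -2.38 for Creb3l1, from -1.24 to -1.04 for Sec11c and from -1.60 to -1.36 for Kdelr3.

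Of the 46 genes, the 3 called ones included, 37 had a log2 fold change below 0 in PE-/- females (80.4%, beside 49.8% of all genes tested), and the median was -0.33, beside 0.00 over all genes. At an unadjusted p under 0.05, 14 genes passed (30.4%, beside 16.1% of all genes), 13 of them lower (28.3%, beside 8.39%). The PE-/- and PE+/- libraries did not overlap in 13 genes that were lower (28.3%, beside 8.95% of all genes) and 2 that were higher (4.35%, beside 9.64%), Creb3l2 and Sel1l. In males the median was -0.15, with 31 genes below 0 (67.4%, beside 49.6% of all genes), 2 at an unadjusted p under 0.05 (4.35%, beside 6.14%), 1 lower without overlap (2.17%, beside 2.02%) and 0 higher without overlap (beside 2.54%).

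Among the chaperones, Hspa5, which encodes BiP, the main Hsp70 of the ER and the usual readout of ER stress, had 3801, 2534, 3186 and 3110 CPM in PE+/- females and 3665, 2797 and 3235 CPM in PE-/- females. It had 2627, 3719, 3438 and 2530 CPM in PE+/- males and 3584, 2777, 1212 and 2794 CPM in PE-/- males. All 4 groups overlapped, and PE-/- male replicate 3 was the lowest library. Its log2 fold change was 0.03 in females (SE 0.17, edgeR adjusted p = 0.968) and -0.25 in males (SE 0.30, edgeR adjusted p = 0.979).

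The other chaperones were not called by edgeR in either sex. Hsp90b1, the Hsp90 of the ER, stood at 0.02 in females and -0.26 in males on the log2 scale, and Dnajb9, a BiP co-chaperone, had -0.22 and -0.19. Hyou1, a nucleotide exchange factor for BiP, had -0.15 in females and -0.86 in males (SE 0.48). Sdf2l1, a partner of BiP complexes, was the one of the 7 with separate female groups, from 335 to 502 CPM in PE+/- females and from 217 to 319 CPM in PE-/- females. Its log2 change was -0.66 (SE 0.20, edgeR adjusted p = 0.157). It was among the 8 members that DESeq2 called in females (DESeq2 adjusted p = 0.0479). The others were Creb3l1, Sec11c, Kdelr3, Derl2, Spcs1, Ssr4 and Kdelr2. Over the settings that kept all libraries, as many as 1431 of all genes were called, a maximum that may come from another setting.

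The lectin chaperones calreticulin (Calr) and calnexin (Canx), which bind glycoproteins, had -0.27 (SE 0.17) and -0.67 (SE 1.16) in females. Of the disulfide isomerases, Pdia6 had separate female groups, 329 to 426 CPM against 275 to 324 CPM, and a log2 change of -0.38 (SE 0.13, edgeR adjusted p = 0.229). Pdia3 and Pdia4 had 0.15 and 0.14, and P4hb had -0.95 (SE 0.67). The secreted stress factors Manf and Creld2 had -0.68 (SE 1.07) and -0.41 (SE 0.42) in females and 1.05 (SE 0.67) and 0.17 (SE 0.21) in males. Manf overlaps 4930524O07Rik and Dcaf1 on the opposite strand (37.4 and 22.6 CPM) and Rbm15b on its own strand (21.5 CPM).

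Of the 3 sensors, Atf6 had the smallest p of the 46 genes in males. It had 50.6, 55.9, 46.2 and 43.8 CPM in PE+/- males and 43.0, 34.2, 32.4 and 37.2 CPM in PE-/- males, which did not overlap, and a log2 change of -0.42 (SE 0.14, edgeR adjusted p = 0.606). In females it had 50.1, 45.4, 47.6 and 50.6 CPM in PE+/- and 38.2, 37.9 and 43.8 CPM in PE-/-, also without overlap, at -0.28 (SE 0.13, edgeR adjusted p = 0.327). Ern1, the gene for IRE1 alpha, had -0.66 in females (SE 0.22, edgeR adjusted p = 0.199), again with separate groups, and Eif2ak3, the gene for PERK, had -0.21 (SE 0.15).

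Xbp1, whose mRNA is spliced by IRE1, had 322, 611, 1582 and 1404 CPM in PE+/- females and 929, 1192 and 543 CPM in PE-/- females. It had 1316, 218, 1168 and 1116 CPM in PE+/- males and 1013, 967, 993 and 1057 CPM in PE-/- males. PE+/- male replicate 2 and PE+/- female replicate 1 were the lowest of the 15 libraries, and the log2 fold changes were -0.14 in females (SE 0.55) and 0.07 in males (SE 0.45). The deposited counts were per gene, so spliced and unspliced Xbp1 were not separated. Atf4 and Ddit3, the PERK-arm transcription factors, had -0.53 (SE 0.20, edgeR adjusted p = 0.258) and -0.65 (SE 0.61) in females. Creb3l2, a relative of Creb3l1, had the opposite sign in females, 0.42 (SE 0.19, edgeR adjusted p = 0.331), from 260 to 311 CPM in PE+/- and from 314 to 509 CPM in PE-/- females.

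The genes of entry into the ER had negative values in females with the exception of Spcs2. The 3 translocon genes had log2 fold changes from -1.60 to -0.47, with separate female groups for Sec61b and Sec61g. Of the signal peptidase genes beside Sec11c, Spcs1 had 483, 481, 534 and 537 CPM in PE+/- females and 284, 376 and 361 CPM in PE-/- females, at -0.59 (SE 0.14, edgeR adjusted p = 0.0987). Spcs1 overlaps Glt8d1 on the opposite strand, which averaged 88.1 CPM. Spcs3 had -0.13 (SE 0.11), and Spcs2 had 0.56 (SE 1.24). The 4 translocon-associated genes ran from -1.61 to -0.37, and of these Ssr4 had separate groups, with 62.2, 82.5, 96.8 and 65.6 CPM in PE+/- females and 34.1, 52.0 and 40.6 CPM in PE-/- females, at -0.87 (SE 0.22, edgeR adjusted p = 0.117).

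Of the 7 genes of ER-associated degradation, Derl2, a derlin of the retrotranslocation machinery, had the most negative value of the 46 genes in females. It had 193, 27.3, 189 and 206 CPM in PE+/- females and 16.4, 20.2 and 17.2 CPM in PE-/- females, and its log2 fold change was -3.11 (SE 0.66, edgeR adjusted p = 0.0819). In males both groups held low and high libraries, with 156, 21.7, 185 and 16.8 CPM in PE+/- and 21.2, 168, 163 and 181 CPM in PE-/-. Derl2 overlaps Mis12 on the opposite strand, which averaged 77.5 CPM. Sel1l, the adaptor of the ubiquitin ligase of this pathway, was higher in each PE-/- female, from 239 to 372 CPM against 174 to 233 CPM, at 0.48 (SE 0.19, edgeR adjusted p = 0.270).

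Syvn1, the gene for that ligase, HRD1, had 15.1, 16.0, 15.1 and 10.5 CPM in PE+/- males and 11.6, 10.4, 5.52 and 10.8 CPM in PE-/- males, which overlapped, and a log2 change of -0.57 (SE 0.25, edgeR adjusted p = 0.817). In females it had 14.2, 12.9, 14.3 and 5.85 CPM in PE+/- and 18.0, 11.4 and 5.47 CPM in PE-/-, at -0.04 (SE 0.45). Syvn1 overlaps Mrpl49 on the opposite strand, which averaged 63.5 CPM, so its low values may hold reads of that gene. Derl3, another derlin, had 1.56, 17.8, 2.67 and 13.8 CPM in PE+/- females and 2.16, 2.38 and 2.54 CPM in PE-/- females, at -1.93 (SE 0.84, edgeR adjusted p = 0.318). The PE-/- libraries lay within the range of the PE+/- ones. Herpud1, Edem1 and Derl1 had values between -0.23 and -0.04 in females. The other KDEL receptors, Kdelr1 and Kdelr2, had -0.26 (SE 0.16) and -0.43 (SE 0.12, edgeR adjusted p = 0.144) in females, and the COPII coat genes Sec23b and Sec24d had 0.15 (SE 0.20) and -0.23 (SE 0.18).

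**Figure D2:**
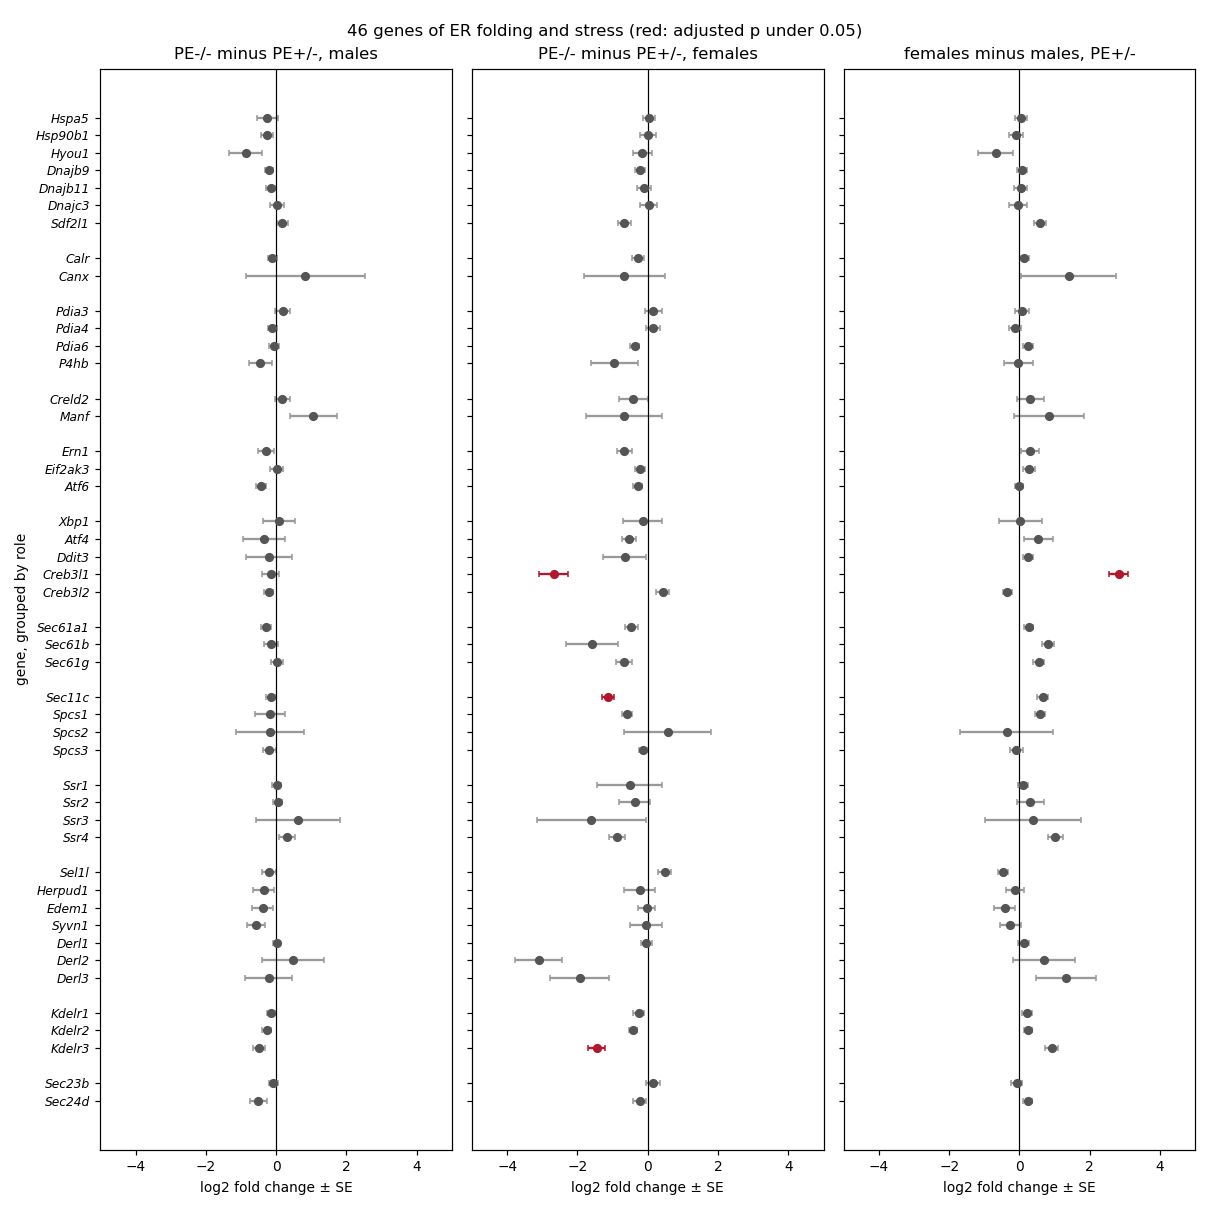
Log2 fold change with its SE (bars) of the 46 genes, grouped by role, for PE-/- against PE+/- in males and in females and for females against males in PE+/-. Red points, adjusted p under 0.05, are Sec11c, Creb3l1 and Kdelr3 below 0 in the middle panel and Creb3l1 above 0 in the right panel, and the left panel has none.

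Females and males were also compared within each genotype. In PE+/- pituitaries 1 of the 46 genes was called, higher in females (2.17%, beside 0.670% of all 17163 genes called and 0.414% called higher). This was Creb3l1, with a log2 change of 2.82 (SE 0.28, edgeR adjusted p = 0.00773), a fold of 7.07. It passed the threshold in all 8 fits that left out 1 library, with values from 2.52 to 2.94. The median of the 46 genes was 0.22, beside -0.01 over all genes. At an unadjusted p under 0.05 there were 10 genes (21.7%, beside 13.5% of all genes), 8 higher and 2 lower in females. The sexes did not overlap in 9 genes higher in females (19.6%, beside 5.33%) and 2 lower (4.35%, beside 4.43%).

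The 9 genes were Creb3l1, Ssr4, Kdelr3, Sec61b, Sec11c, Spcs1, Sdf2l1, Sec61g and Kdelr2. The log2 differences of females from males in PE+/- were 1.03 for Ssr4 (SE 0.22, edgeR adjusted p = 0.0887), 0.92 for Kdelr3 (SE 0.18, edgeR adjusted p = 0.0755), 0.82 for Sec61b (SE 0.17, edgeR adjusted p = 0.0858) and 0.67 for Sec11c (SE 0.16, edgeR adjusted p = 0.121). Ssr4 lies on chromosome X, and Kdelr3, Sec61b and Sec11c lie on autosomes. PE-/- females compared with PE+/- females gave -0.87 for Ssr4, -1.46 for Kdelr3, -1.60 for Sec61b and -1.13 for Sec11c. The 2 comparisons share the 4 PE+/- female libraries, so these values are not independent of each other. Sel1l and Creb3l2, the 2 genes lower in PE+/- females than in PE+/- males, stood at -0.46 and -0.34 in this comparison and at 0.48 and 0.42 for PE-/- against PE+/- females.

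In PE-/- pituitaries 0 of the 46 genes differed between the sexes in the edgeR test, beside 0.0494% of all 18217 genes, and 1 passed an unadjusted p under 0.05 (2.17%, beside 3.37%). DESeq2 called 1, Derl2. Over the settings that kept all libraries, as many as 41 of all genes were called, a maximum that may come from another setting. The sexes did not overlap in 3 genes lower in females (6.52%, beside 2.71%), Derl2, Sec11c and Manf, and in 0 higher (beside 2.53%). Derl2 had a log2 difference of females from males of -2.90 (SE 0.68, edgeR adjusted p = 0.997), and Sec11c had -0.31 (SE 0.14, edgeR adjusted p = 0.997). Sec24d, which encodes a cargo-binding subunit of the COPII coat, had 162, 98.3 and 118 CPM in PE-/- females and 113, 89.8, 102 and 49.5 CPM in PE-/- males, at 0.51 (SE 0.30, edgeR adjusted p = 0.997). In PE+/- it had 146, 144, 156 and 143 CPM in females and 113, 155, 121 and 114 CPM in males. The median of the 46 genes in PE-/- was -0.01.

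Whether the effect of PE-/- differed between the sexes was tested by the interaction of genotype and sex over 15 libraries. No member was called by edgeR, beside 0.161% of all 19286 genes, and 9 passed an unadjusted p under 0.05 (19.6%, beside 10.1%). DESeq2 called 3, Creb3l1, Sec11c and Ssr4. Over the settings that kept all libraries, as many as 392 of all genes were called, a maximum that may come from another setting. For Creb3l1 the effect in females minus that in males was -2.52 (SE 0.46, edgeR adjusted p = 0.0507), which lay at the threshold. It was -0.97 for Sec11c (SE 0.22, edgeR adjusted p = 0.116) and -1.17 for Ssr4 (SE 0.33, edgeR adjusted p = 0.199). Ssr4 had 51.0, 33.2, 36.3 and 30.5 CPM in PE+/- males and 33.7, 52.7, 57.6 and 43.3 CPM in PE-/- males, which overlapped. The calls in females and their absence in males are therefore not shown to differ between the sexes in the main edgeR test. For Creb3l1 the outcome of the interaction changed with the edgeR setting, as given below.

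Some cell type markers also differed between PE-/- and PE+/- females. Prl, the prolactin gene of lactotropes, had 34016, 29341, 21945 and 35081 CPM in PE+/- females and 5185, 4455 and 5598 CPM in PE-/- females, at a log2 change of -2.58 (SE 0.21, edgeR adjusted p = 0.00698). In males it had 31155, 12274, 15713 and 20319 CPM in PE+/- and 16586, 4749, 8044 and 41186 CPM in PE-/-, with overlap. The summed level of the 4 lactotrope markers (Prl, Drd2, Pou1f1 and Agtr1b) ran from 22375 to 35849 CPM in PE+/- females and from 4998 to 6202 CPM in PE-/- females, and from 12901 to 31640 CPM in PE+/- males and from 5274 to 41803 CPM in PE-/- males. Of the 4, 1 fell, 3 were tested, and Agtr1b was at the floor. Prl made up most of this summed level. In females, Drd2 had 0.21 (SE 0.21, edgeR adjusted p = 0.700) and Pou1f1 had -0.32 (SE 0.25, edgeR adjusted p = 0.615). Of the 5 gonadotrope markers, Nr5a1, Lhb and Gnrhr were called lower in each sex. Fshb was not called in either sex, though its groups did not overlap. It had -3.34 in females (SE 0.88, edgeR adjusted p = 0.125) and -5.22 in males (SE 0.72, edgeR adjusted p = 0.0506). Cga had -0.37 in females (SE 0.37) and -0.70 in males (SE 0.49), with overlap in both. The summed level of the 5 ran from 5855 to 8734 CPM in PE+/- females and from 2263 to 6941 CPM in PE-/- females. In males it ran from 8971 to 16858 CPM in PE+/- and from 1359 to 6812 CPM in PE-/-. None of the 4 stem and folliculostellate or the 5 handling genes (Fos, Jun, Egr1, Hspa1a and Hspa1b) was called, and their summed levels ran from 48.5 to 73.2 and from 138 to 455 CPM in PE+/- females and from 81.4 to 127 and from 346 to 697 CPM in PE-/- females. Of these, 3 stood higher in every PE-/- female than in any PE+/- female, beside 9.64% of all genes. Hspa1b, a cytosolic heat shock gene, had 13.4, 8.41, 5.06 and 8.54 CPM in PE+/- females and 23.3, 24.2 and 40.4 CPM in PE-/- females, at 1.72 (SE 0.35, edgeR adjusted p = 0.0763), and Hspa1a, its near-identical neighbour, which may share reads with it, had 1.53 (SE 0.38, edgeR adjusted p = 0.110). Aldh1a2 had 0.77 (SE 0.14, edgeR adjusted p = 0.0634). The part of these cell types and of handling in the values of the 46 genes was not tested.

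Of 86 other genes of the same pathways, 4 fell in PE-/- females (4.65%, beside 0.697% of all genes called lower) and none rose. Tmed3, a p24 cargo receptor of the early secretory pathway, had 934, 1066, 1018 and 1204 CPM in PE+/- females and 513, 595 and 588 CPM in PE-/- females, at -0.91 (SE 0.13, edgeR adjusted p = 0.0314). Ostc, a subunit of oligosaccharyltransferase, had -0.82 (SE 0.12, edgeR adjusted p = 0.0314), and Edem2, a mannosidase of ER-associated degradation, had -1.02 (SE 0.15, edgeR adjusted p = 0.0337). Sec16b, a scaffold of ER exit sites, had -0.80 (SE 0.13, edgeR adjusted p = 0.0445). In all 4 the female groups did not overlap.

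In males 0 of these 86 genes were called by edgeR (beside 0.132% of all genes), and 0 were called between the sexes in PE-/- (beside 0.0494%). Tmed3 was the 1 gene of the 86 that was higher in PE+/- females than in PE+/- males (1.16%, beside 0.414% of all genes called higher), by 0.90 (SE 0.14, edgeR adjusted p = 0.0335). It was also the 1 called for the interaction (1.16%, beside 0.161%), at -1.02 (SE 0.18, edgeR adjusted p = 0.0347). Its levels in males were 538, 607, 643 and 475 CPM in PE+/- and 573, 677, 610 and 600 CPM in PE-/-. Each of the 4 calls in females was lost in at least 6 of the 7 fits that left out 1 library.

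Several of the 46 genes varied widely between libraries of a group. In 14 of the 44 with a mean of at least 10 CPM (31.8%), the highest library of a group was at least 4 times the lowest after adding 1 CPM to each, beside 1731 of 9701 genes (17.8%) and 19 of 82 of the other pathway genes (23.2%). This limit was chosen after the values were seen. Canx ran from 6.37 to 1540 CPM, with the highest of them at more than 4 times the level in 8 of 15 libraries. Spcs2 had 35.1, 30.6, 1375 and 1267 CPM in PE+/- females, and Ssr1 had 1287, 29.6 and 1144 CPM in PE-/- females. Ssr3 held low and high libraries in all 4 groups, from 21.5 to 1110 CPM. Xbp1, Manf, P4hb, Sec61b, Derl2, Spcs1, Ssr2, Atf4, Ddit3 and Hyou1 were the others.

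Adding the counts of annotated genes within 2000 bases left 8 of the 14 past the limit. Adding any steady gene lowers the ratio, so this sum cannot show whether reads were shared with neighbouring genes. The 3 genes called in females were not among the 14. Over the 32 members that were not, the median in females was -0.23, with 10 lower and 2 higher without overlap (beside 8.95% and 9.64% of all genes), and the same 3 calls. For females against males in PE+/-, these 32 had a median of 0.13, with 7 higher and 2 lower without overlap (beside 5.33% and 4.43% of all genes), and the 1 call of Creb3l1. The 32 exclude genes of wide spread within a group, which favours groups that do not overlap. The shares of all genes were taken without that limit, so the sets are unlike.

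**Figure D3:**
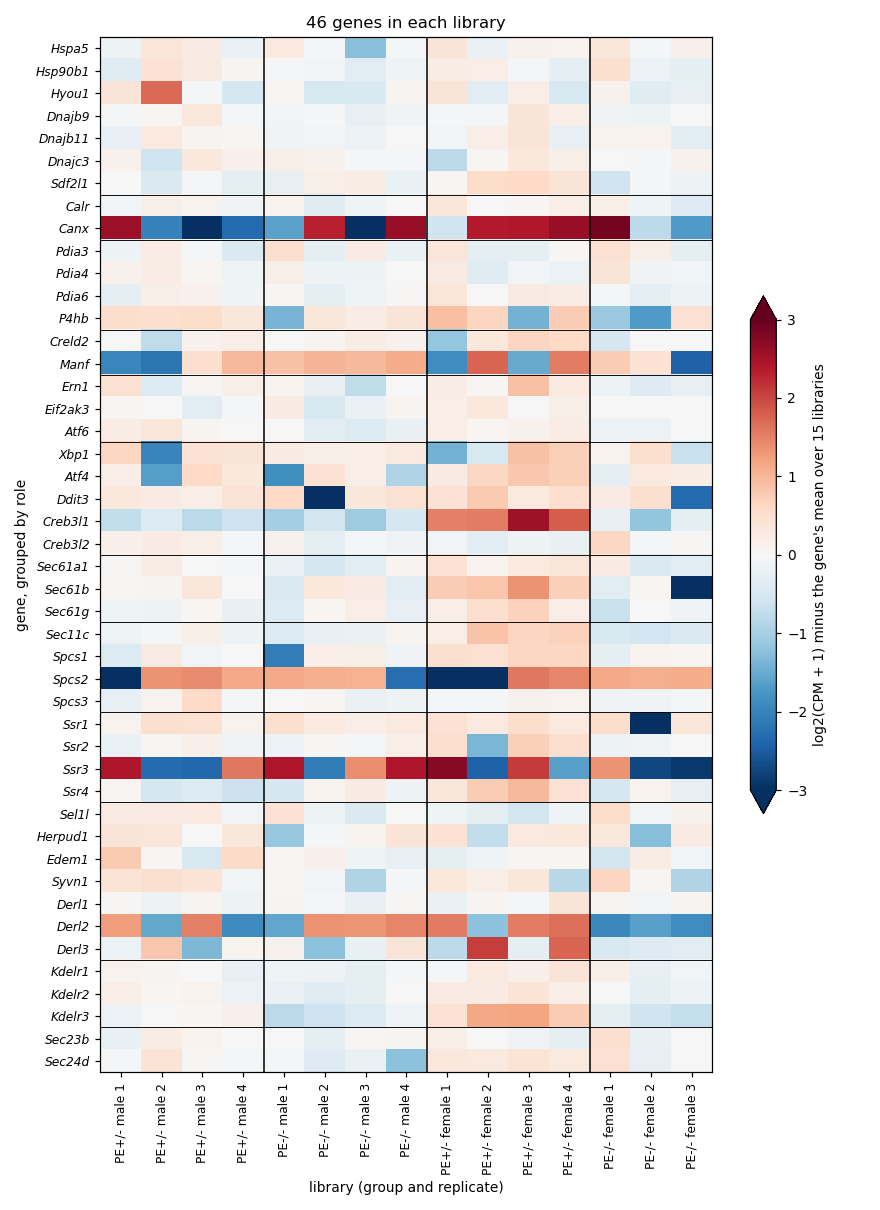
Level of each of the 46 genes (rows, grouped by role) in each of the 15 libraries (columns, by group), as log2(CPM + 1) minus the mean of the gene over the libraries, with red above and blue below that mean and colours saturating at a difference of 3. Creb3l1, Sec11c and Kdelr3 are red across the 4 PE+/- females. Canx, Spcs2, Ssr3 and Derl2 switch between red and blue within groups, though Spcs2 and Derl2 do not in PE-/- females.

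**Figure D4:**
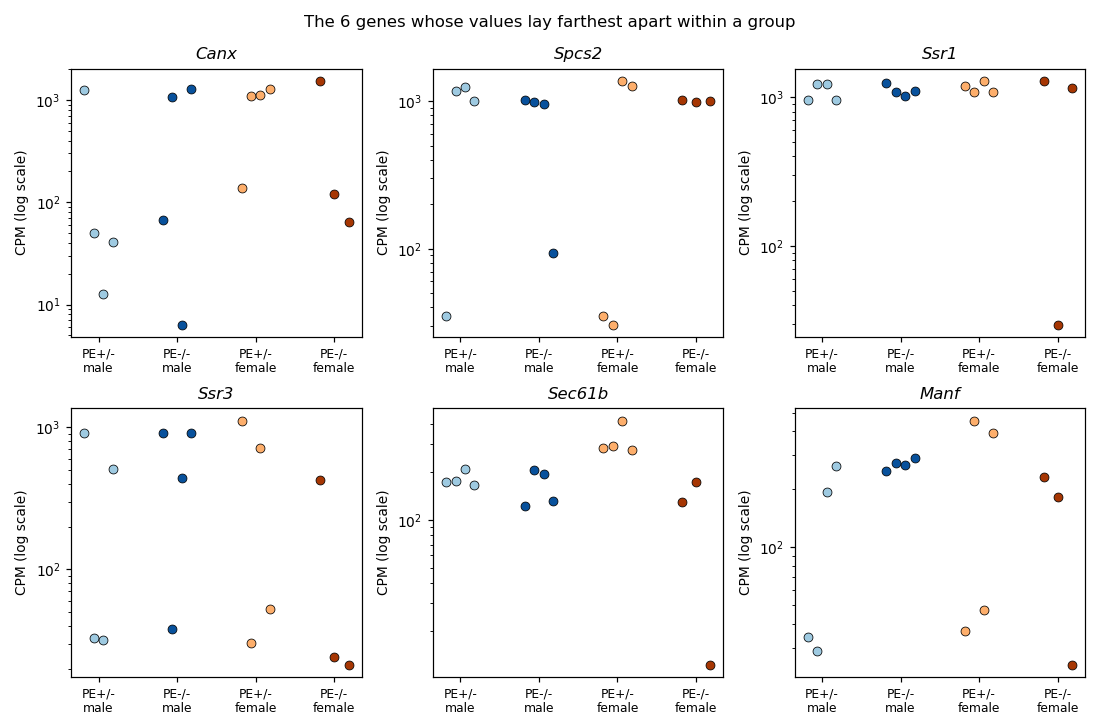
CPM on a log scale in each of the 15 libraries, by group, of the 6 genes with the largest ratio of highest to lowest library within a group. In some groups a single library falls far below the others, for example PE-/- female replicate 2 at 29.6 CPM for Ssr1 and PE-/- female replicate 3 at 12.4 CPM for Sec61b. Elsewhere a single library stands far above, as for Canx in PE+/- males, or low and high libraries are mixed, as for Spcs2 in PE+/- females.

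The 9 genes with an ERSE had a median log2 fold change of -0.27 in females and -0.11 in males, and the 27 genes with a promoter at hand but no ERSE had -0.26 and -0.15. Of the first, 1 passed an unadjusted p under 0.05 in females, and of the second 9 did, beside 16.1% of all genes. These are descriptions of the 36 genes with a promoter at hand.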

How the data were processed

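The 15 libraries of whole pituitary RNA were built with a low-input kit that amplifies cDNA. The study's methods name cutadapt for trimming, STAR for mapping to mm10 and featureCounts for counting. The deposited values were estimated counts per gene, whole numbers with no normalization, whose row names are those of an assembly step that the methods do not state. Counts of 5, 9 and 13 occurred 1.52, 1.16 and 1.08 times as often as the mean of the adjoining values, which puts 1 fragment at about 4 counts, and 12 counts (3 fragments) were taken as the floor. Floors cover counting error only. Members, lists and comparisons were chosen with earlier results of these data known.

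In R 4.3.3, edgeR 4.0.16 was run on the libraries of the groups compared (filterByExpr with minimum count 10 and total 15, TMM, two-sided quasi-likelihood F test, Benjamini-Hochberg adjustment over all genes, threshold 0.05). The common biological coefficient of variation was 41.3% to 46.9%. Values in every sample were given for Hspa5 and Xbp1 and, per comparison, for up to 6 members past the threshold or, with none, the 3 with the smallest p. Up to 4 other pathway genes were named per comparison, and other members by group. Values of further members were given after they were seen. Alternatives included DESeq2 1.42.0, other scalings and filters, and leaving out each library. Scripts were tested on simulated data. Coordinates are those of GENCODE M21. Same-numbered replicates showed correlations from -0.081 to 0.132 in their deviations from the group means, and they were not treated as pairs. For genotype in females, 2 of 3 numbers correlated best with their own number, at 0.132 and 0.087, and the third had -0.047. For genotype in males, 0 of 4 did. Of the somatotrope, corticotrope and melanotrope, thyrotrope, posterior lobe, endothelial, immune and erythroid marker lists, 0 genes were called in any comparison.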

Additional observations from a re-analysis of the deposited data

Results flagged for a closer look

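In 9 of 78 groups of 4 libraries, over the 26 genes looked at (Hspa5, Xbp1, those named by rule and the 14 that varied widely within a group), 1 library stood apart from the other 3 by Dixon's test, where chance gives about 1 in 20, and the 14 were included because they varied. Derl2 had 27.3 CPM in PE+/- female replicate 2, against 189 to 206 in the other 3, and 21.2 in PE-/- male replicate 1, against 163 to 181. Canx had 138 CPM in PE+/- female replicate 1, against 1090 to 1280, and 1250 in PE+/- male replicate 1, against 12.7 to 50.4. P4hb had 251 CPM in PE-/- male replicate 1, against 762 to 862. Spcs2 had 93.5 CPM in PE-/- male replicate 4, against 956 to 1020. Ssr2 had 121 CPM in PE+/- female replicate 2, against 445 to 511. Sec61b had 418 CPM in PE+/- female replicate 3, against 273 to 292. Syvn1 had 5.85 CPM in PE+/- female replicate 4, against 12.9 to 14.3.

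The effect of PE-/- on Tmed3 differed between the sexes, by -1.02 on the log2 scale in females minus males (SE 0.18, edgeR adjusted p = 0.0347). It was past the threshold in 2 of 15 fits that left out 1 library.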

How the results depend on the processing

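Of the 46 genes, 0 were called in males in all 18 alternatives. In females the main count of 3 became 8 with DESeq2, 1 with no low-count filter and 0 with the replicate block, and ran from 0 to 3 when 1 library was left out. For females against males in PE+/-, the count of 1 became 8 with DESeq2, 3 with the likelihood ratio test, 4 in one fit on all 15 libraries and 0 with the replicate block, and ran from 1 to 2 when 1 library was left out (2 without PE+/- female replicate 1). In PE-/-, the count of 0 became 1 with DESeq2 and with the likelihood ratio test, and ran from 0 to 1 when 1 library was left out (1 without PE-/- male replicate 1), each time Derl2. For the interaction, the count of 0 became 3 with DESeq2 and 1 with DESeq2 size factors, library totals, the likelihood ratio test, counts divided by 4 or a robust spread (chosen after seeing the data), each time Creb3l1, and ran from 0 to 2 when 1 library was left out. The count of all genes called also rose with the setting. It reached as many as 1431 in females, 900 for the sexes in PE+/-, 41 in PE-/- and 392 for the interaction. A higher count of members is therefore not read as a result about them. The causes of these shifts were not tested. With the replicate block, adjusted p in females was 0.207 for Creb3l1, 0.229 for Sec11c and 0.233 for Kdelr3, and the numbers share no known pairing.

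The count of all genes called ran from 0 to 206 in males (main 23), from 1 to 1431 in females (189), from 0 to 900 for the sexes in PE+/- (115), from 0 to 41 in PE-/- (9) and from 11 to 392 for the interaction (31) over the settings that kept all libraries. No scaling moved the median of all genes by over 0.1. Of 1255 values of single genes under an alternative, 12 changed sign, none of them past the threshold in either fit. Xbp1 in females was 0.364 with the replicate block and ran from -0.433 to 0.188 when 1 library was left out, and in males it ran from -0.255 to 0.272. Hspa5 in females ran from -0.0694 to 0.132. In PE-/-, the sex difference of Kdelr3 was 0.0921 with the replicate block and ran from -0.183 to 0.0965, and that of Ostc ran from -0.0785 to 0.0068. Widely varying values within groups and 3 PE-/- females limit what could be called.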
